A study of Homo sapiens with 6 samples.

Results

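mTOR is a protein kinase that couples growth to the supply of amino acids, energy and growth factor signals, and it works in a pair of complexes. The 10 genes described here are those whose symbol is MTOR, RPTOR, RICTOR, MLST8, DEPTOR, AKT1S1, DDIT4, SESN2, TSC1 or TSC2, out of 60649 genes in the count table, and each matched 1 row. The first 6 encode subunits of mTOR complexes and the last 4 encode proteins that restrain mTORC1 from upstream. RNA was sequenced from 786-O, a human cell line of clear cell renal carcinoma in which VHL, needed to degrade the HIF alpha subunits, does not work. The labels give the genotype LINC02068 knockdown to cells with shRNA1 or shRNA2, each a short hairpin RNA against that long non-coding RNA, and WT to cells with a control hairpin (shControl). Each of the 3 groups had 2 libraries, all from cells grown in RPMI-1640 with 10% fetal bovine serum and no added treatment. The question was which transcripts of the mTOR machinery differed in cells with lowered LINC02068.

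mTORC1 contains MTOR, RPTOR, MLST8, AKT1S1 and DEPTOR, and it promotes protein synthesis and represses autophagy when it sits on the lysosome with active RHEB. RICTOR replaces RPTOR in mTORC2, which phosphorylates AKT. The TSC1 and TSC2 proteins switch RHEB off, DDIT4 (also called REDD1) acts through TSC2 during hypoxia and other stress, and SESN2 holds back the Rag branch when leucine is short. In clear cell renal carcinoma this pathway is a drug target.

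Total counts ran from 15376448 to 37311846 per library, so that a level of 1 CPM (counts scaled to library size, with library sizes adjusted by TMM, edgeR's factor for differences in composition) stood for 14.9 to 36.0 counts. All 10 genes passed the filter on low counts, as did 16039 genes in all. The 7 renal and epithelial markers examined were present in every library, with PAX8 at 306 to 335 and VIM at 5142 to 5971 CPM. The leukocyte genes PTPRC and CD3E and the endothelial gene CDH5 had 0 counts in all 6. Of the same lists, the leukocyte gene CD68 stood at 35.8 to 44.0 CPM, and the endothelial gene PECAM1 had 4 to 30 counts per library. The targeted LINC02068 was at 1.07 and 1.14 CPM (20 and 32 counts) in shControl, 0.605 and 0.105 CPM (9 and 2 counts) in shRNA1 and 0.472 and 0.478 CPM (17 and 10 counts) in shRNA2. Its log2 fold change for the mean of both hairpins was −1.46 ± 0.59 (edgeR adjusted p = 0.0447), and it was not called with shRNA1 alone (adjusted p = 0.0690) or shRNA2 alone (adjusted p = 0.148). The call was also lost without any 1 of 5 libraries, all but shRNA1 replicate 1, with adjusted p up to 0.219. Nothing in the labels says that replicates came from separate cultures, so p-values measure the spread between these libraries, which may be technical. Errors after ± are standard errors, and in bulk RNA fewer cells of a kind and less RNA per cell cannot be told apart.

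Promoter sequence was read from RefSeq (GRCh38.p14) for 7 of the 10 genes, and the upstream stretches of 5 are shown because these genes had the largest rises and falls or belong to the mTORC2 scaffold. Each is printed 5′ to 3′ on the gene's own strand and keeps to bases outside annotated exons. Capitals mark ACGTG, the core letters of a hypoxia response element, and CCAAT, the letters NF-Y binds, which on these strands read ATTGG. DDIT4 covers chr10:72273674-72273919 (plus strand), SESN2 chr1:28259268-28259517 (plus), MTOR chr1:11262552-11262801 (minus), RPTOR chr17:80544588-80544818 (plus) and RICTOR chr5:39074409-39074649 (minus).
DDIT4: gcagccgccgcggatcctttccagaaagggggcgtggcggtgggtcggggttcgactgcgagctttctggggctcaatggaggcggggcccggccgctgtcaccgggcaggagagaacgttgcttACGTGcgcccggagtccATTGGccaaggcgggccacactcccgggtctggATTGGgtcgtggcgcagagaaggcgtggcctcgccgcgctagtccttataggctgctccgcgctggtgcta
SESN2: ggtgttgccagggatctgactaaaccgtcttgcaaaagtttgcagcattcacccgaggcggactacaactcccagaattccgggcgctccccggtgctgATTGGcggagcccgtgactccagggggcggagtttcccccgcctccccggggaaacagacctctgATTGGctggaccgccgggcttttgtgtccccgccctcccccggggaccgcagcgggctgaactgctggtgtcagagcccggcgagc
MTOR: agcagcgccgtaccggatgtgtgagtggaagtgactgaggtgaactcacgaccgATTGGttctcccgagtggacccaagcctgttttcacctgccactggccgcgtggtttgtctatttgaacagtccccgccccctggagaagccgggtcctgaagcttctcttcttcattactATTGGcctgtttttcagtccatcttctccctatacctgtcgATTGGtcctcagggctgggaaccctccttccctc
RPTOR: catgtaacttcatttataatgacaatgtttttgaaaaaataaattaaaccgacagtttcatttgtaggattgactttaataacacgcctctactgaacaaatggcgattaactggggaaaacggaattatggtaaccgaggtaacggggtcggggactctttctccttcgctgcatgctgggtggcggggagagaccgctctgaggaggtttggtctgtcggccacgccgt
RICTOR: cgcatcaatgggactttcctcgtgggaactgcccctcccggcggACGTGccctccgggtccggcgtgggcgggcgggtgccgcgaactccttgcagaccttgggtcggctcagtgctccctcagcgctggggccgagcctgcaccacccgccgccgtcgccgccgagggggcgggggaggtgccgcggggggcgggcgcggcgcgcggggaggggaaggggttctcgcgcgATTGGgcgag

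The DDIT4 stretch held ACGTG once, 125 bases before the start, and CCAAT letters at 108 and 75 bases before it. SESN2 held CCAAT letters at 151 and 86 bases before its start, and MTOR at 196, 75 and 34. RICTOR held ACGTG at 206 bases and CCAAT letters at 19 bases before its start, and its window held TGACG 16 bases after it. Both strands were searched for 5 motifs, and RPTOR held none of them. The composite element of C/EBP and ATF factors, TGATGNAA, was present in 3.62% of all 35116 RefSeq windows of 300 bases (250 before to 50 after the start). TGACG, part of the element that ATF and CREB factors bind, was present in 24.6%. The hypoxia core ACGTG was present in 21.4%, the E-box CACGTG, which contains it, in 7.26%, and CCAAT in 34.6%. The search for CCAAT was added after the sequences had been seen. GC content of the printed stretches ran from 45.5% in RPTOR to 76.8% in RICTOR. TSC1 held TGACG 157 bases before its start. A TSC2 window held 4 of the motifs within 1 short stretch, shown here because they overlap, at chr16:2047863-2047890 on the plus strand, with all matched letters in capitals.
TSC2: ggcccCGTCACGTGATGCAAggatcgcc
The other TSC2 window held none of the motifs searched. The TSC2 stretch shown lies inside the gene as GENCODE 29 places it, from base 2047465. Unlike the longer stretches, it was not limited to bases outside exons. A match of letters describes the sequence only. Genes that fell and genes that rose both carried CCAAT letters. DDIT4 and SESN2, which fell most, had neither TGATGNAA nor TGACG in these windows of 300 bases. Sequence outside the windows was not searched, and any part of C/EBP or ATF factors was not tested.

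With either hairpin, MTOR and RPTOR rose, and DDIT4 and SESN2 fell. For the mean of both hairpins, DDIT4 and SESN2 were at 0.292 and 0.267 of their control levels. For the mean of both hairpins against shControl, 6 of the 10 genes rose, 3 fell and 1 was not called at an adjusted p under 0.05. That is 90% of these genes, where 57.5% of all tested genes were called, 28.6% as higher and 28.9% as lower. The 10 genes were chosen with earlier results of these data known, and the difference between these shares was not tested. Of all called genes 49.7% were higher, and with total counts in place of TMM 36.0% were, where 4 of the 10 genes rose and 3 fell. With shRNA1 the split was 6 higher and 3 lower (all genes 52.4% called, 26.8% higher and 25.6% lower), and with shRNA2 it was 6 higher and 2 lower (all genes 52.8% called, 26.7% higher and 26.1% lower). Both comparisons share the shControl libraries. The median log2 fold change of the 10 genes was 0.29, beside −0.03 over all genes. In 9 of the 10 genes the 4 knockdown libraries lay wholly above or wholly below both control libraries, as they did in 67.0% of all tested genes. When the test required a change of more than 1.2-fold, 5 of the 10 were called, beside 39.5% of all genes.

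**Figure D1:**
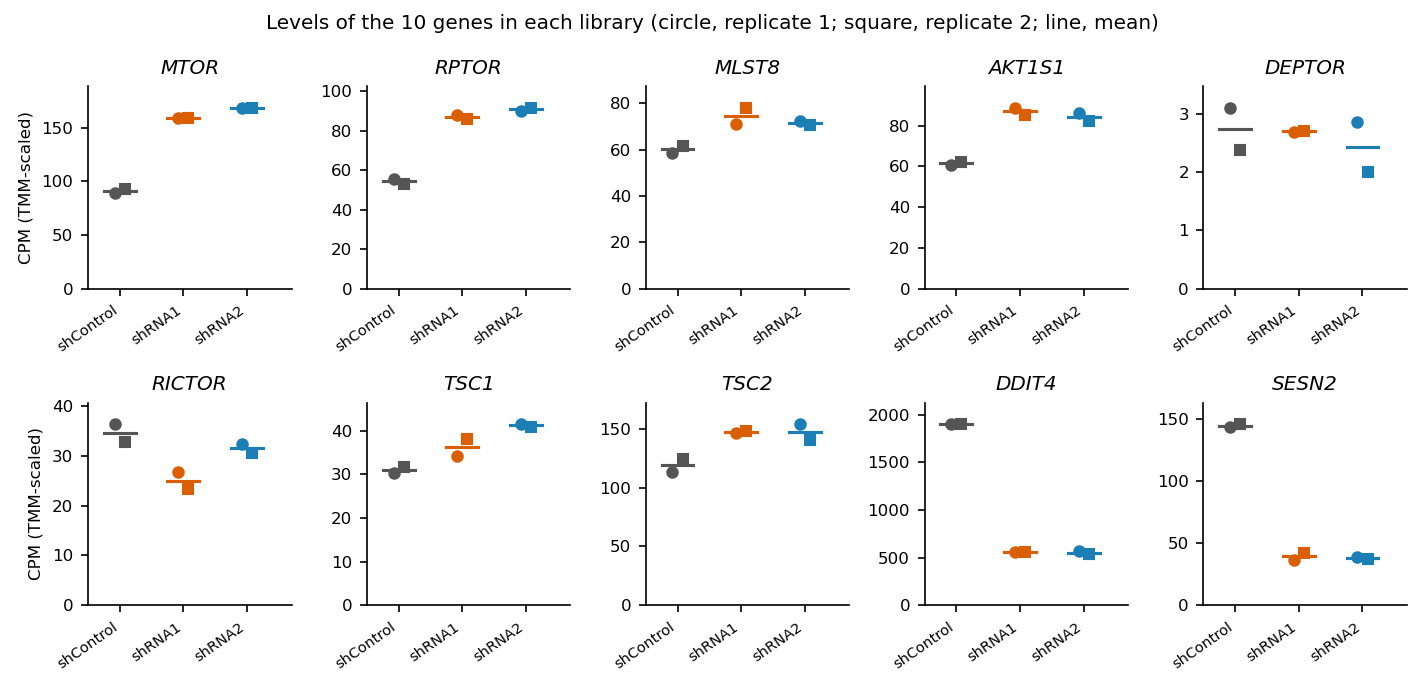
Level of each of the 10 genes in TMM-scaled CPM (vertical axes from 0), with 1 point per library and a line at each group mean. MTOR and RPTOR sit higher in all 4 knockdown libraries, and DDIT4 and SESN2 sit far lower. Only in DEPTOR, at 2.01 to 3.11 CPM, do knockdown libraries overlap the controls.

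MTOR, the kinase itself (chromosome 1, 11106535 to 11262507, minus strand, GENCODE 29 on GRCh38), stood at 89.1 and 92.3 CPM in shControl, 158 and 159 CPM in shRNA1 and 168 CPM in both shRNA2 libraries. The 4 knockdown libraries lay far above both controls, and replicates differed by no more than an SD of 2.50% of their mean. The rise was 1.80-fold (log2 0.85 ± 0.04, 95% interval 0.76 to 0.93, edgeR adjusted p = 7.4e-11), higher than 91.2% of tested genes. By hairpin the log2 fold change was 0.81 ± 0.05 with shRNA1 and 0.89 ± 0.04 with shRNA2.

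RPTOR, the scaffold that brings substrates to mTORC1 (chromosome 17, 80544819 to 80966371, plus strand), stood at 55.8 and 53.0 CPM in shControl, 88.0 and 86.0 CPM in shRNA1 and 90.0 and 91.8 CPM in shRNA2. Here too every knockdown library was above both controls. Its rise was 1.64-fold (log2 0.71 ± 0.05, edgeR adjusted p = 1.4e-08), above 87.5% of tested genes.

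RICTOR, the scaffold of mTORC2 (chromosome 5, 38937919 to 39074408, minus strand), was lower in the knockdown libraries. It stood at 36.4 and 32.8 CPM in shControl, 26.7 and 23.3 CPM in shRNA1 and 32.3 and 30.7 CPM in shRNA2. The shRNA2 libraries lay just under the lower control, and the shRNA1 libraries clearly under it. RICTOR fell with shRNA1 (log2 −0.47 ± 0.10, edgeR adjusted p = 8.7e-04), while with shRNA2 its value was −0.13 ± 0.10 (95% interval −0.33 to 0.07, adjusted p = 0.269). The mean of both was −0.30 ± 0.08 (adjusted p = 0.00581). That call was lost without shControl replicate 1 (−0.23, adjusted p = 0.0822) and after a trend on exon length and GC content was removed (−0.07, adjusted p = 0.481). RICTOR had the lowest exonic GC content of the 10 genes, 36.5%. On the opposite strand OSMR, a cytokine receptor gene that shares 229 exonic bases with RICTOR, fell from 348 and 351 CPM to between 149 and 159 CPM. Whether the reads were counted by strand is not given in the sources used here, and the part of OSMR in the RICTOR value was not tested.

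The ratio of RPTOR to RICTOR in CPM per kilobase of exons, a set of ratios chosen after the values were seen, was 2.02 and 2.12 in shControl, 4.34 and 4.85 in shRNA1 and 3.66 and 3.94 in shRNA2. All 4 knockdown libraries were above both controls, which restates the separate values of the 2 genes. An exact permutation test of the ratio gave p = 0.0667, the smallest value these libraries allow, and adds nothing to them.

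MLST8, the small subunit common to both complexes (chromosome 16, 2204248 to 2209416, plus strand), stood at 58.6 and 61.8 CPM in shControl, 71.3 and 78.2 CPM in shRNA1 and 72.3 and 70.9 CPM in shRNA2. Although no knockdown library reached down to the controls, its rise was a modest 1.22-fold (log2 0.28 ± 0.06, edgeR adjusted p = 6.7e-04). With total counts in place of TMM-scaled library sizes the value was 0.13 (adjusted p = 0.0705), and the call was lost.

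AKT1S1 encodes PRAS40, an mTORC1 subunit that inhibits the kinase until AKT phosphorylates it (chromosome 19, 49869033 to 49878459, minus strand). It stood at 60.8 and 62.1 CPM in shControl, 88.8 and 85.2 CPM in shRNA1 and 86.3 and 82.1 CPM in shRNA2. Knockdown and control libraries were well apart, and the rise was 1.39-fold (log2 0.48 ± 0.05, edgeR adjusted p = 1.4e-06). TBC1D17, which shares 392 exonic bases with it on the opposite strand, had a log2 fold change of 0.01 and was not called.

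DEPTOR, an inhibitory subunit of both complexes on chromosome 8, was the scarcest of the 10. Its levels were 3.11 and 2.39 CPM in shControl (58 and 67 counts), 2.69 and 2.72 CPM in shRNA1 (40 and 52 counts) and 2.86 and 2.01 CPM in shRNA2 (103 and 42 counts). The groups overlapped. The exact 95% Poisson interval of a single library, which covers counting error only, ran from 2.36 to 4.02 CPM in shControl replicate 1 and from 1.45 to 2.72 CPM in shRNA2 replicate 2. No change was detectable at this depth (log2 −0.08 ± 0.26, 95% interval −0.64 to 0.48, edgeR adjusted p = 0.805).

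DDIT4, the stress-induced inhibitor that acts through TSC2 (chromosome 10, 72273920 to 72276036, plus strand), had the highest level per length of the 10 genes. It stood at 1901 and 1899 CPM in shControl, 562 and 554 CPM in shRNA1 and 569 and 534 CPM in shRNA2. The knockdown libraries formed a tight band far below the controls. Its level was 0.292 of control (log2 −1.78 ± 0.03, edgeR adjusted p = 4.1e-16), and only 3.21% of tested genes had a lower log2 fold change. An antisense gene, DDIT4-AS1, covers 41.2% of its exonic bases and was not analysed here.

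SESN2, the leucine-sensing sestrin (chromosome 1, 28259527 to 28282491, plus strand), stood at 143 and 146 CPM in shControl, 36.6 and 41.8 CPM in shRNA1 and 38.4 and 37.5 CPM in shRNA2. As for DDIT4, every knockdown library was far under both controls. Its level was 0.267 of control (log2 −1.90 ± 0.06, edgeR adjusted p = 3.6e-13), and 2.63% of tested genes lay lower. Both hairpins gave close values, −1.88 ± 0.07 with shRNA1 and −1.93 ± 0.07 with shRNA2.

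TSC2, the GTPase-activating subunit that turns RHEB off (chromosome 16, 2047465 to 2089487, plus strand), stood at 113 and 124 CPM in shControl, 146 and 148 CPM in shRNA1 and 154 and 141 CPM in shRNA2. The groups did not overlap, and the rise was 1.24-fold (log2 0.31 ± 0.05, edgeR adjusted p = 6.0e-05). With total counts as library sizes it was 0.15 (adjusted p = 0.0126). The neighbour PKD1, which shares 778 exonic bases on the opposite strand, moved the other way (log2 −0.63 ± 0.06), and NTHL1, which shares 402, rose (0.37 ± 0.10). Their part in the TSC2 value was not tested.

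TSC1, which stabilises TSC2 (chromosome 9, 132891348 to 132946874, minus strand), stood at 30.3 and 31.6 CPM in shControl, 34.3 and 38.1 CPM in shRNA1 and 41.5 and 41.0 CPM in shRNA2. The shRNA1 libraries were closest to the controls. TSC1 rose 1.25-fold for the mean of both hairpins (log2 0.32 ± 0.07, edgeR adjusted p = 0.00158), but with total counts the value was 0.17 (adjusted p = 0.0641). With shRNA1 alone it was 0.23 ± 0.09 (adjusted p = 0.0352), a call lost without any 1 of 5 libraries, all but shRNA1 replicate 1. That call was also lost with DESeq2 (0.23, adjusted p = 0.105). Total counts (0.08), no filter on low counts (0.20), the 1.2-fold test and a fit of only the groups compared (0.22) lost it too. The ratio of TSC2 to TSC1 per kilobase was 3.36 and 3.53 in shControl and 3.09 to 3.82 in the knockdown libraries, so the groups overlapped.

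Among the 10 genes none was called between the hairpins (edgeR), beside 0.0312% of all tested genes, or 5 genes, while 873 had an unadjusted p under 0.05. DESeq2 called none of the 10 either. The widest gap was in RICTOR, lower with shRNA1 than with shRNA2 by a log2 value of −0.34 ± 0.10 (95% interval −0.55 to −0.13, adjusted p = 0.905). For MTOR the interval of that difference ran from −0.18 to 0.01, for DDIT4 from −0.05 to 0.09 and for SESN2 from −0.10 to 0.20.

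**Figure D2:**
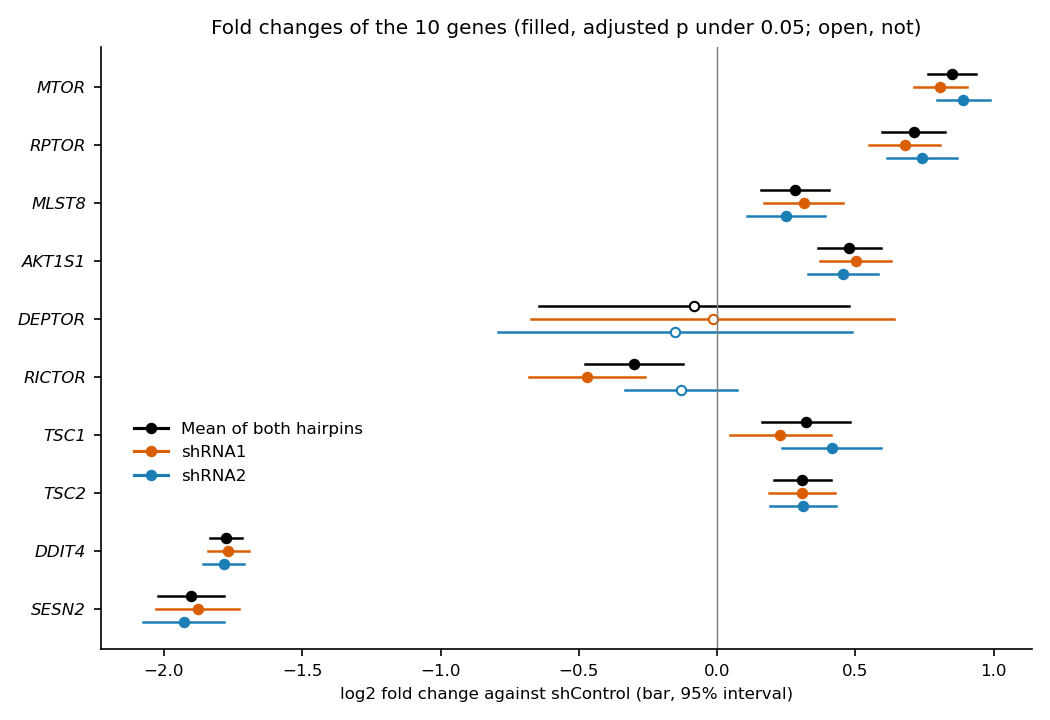
Log2 fold change against shControl (horizontal axis) of each gene with the mean of both hairpins, shRNA1 and shRNA2, with bars for 95% intervals and filled points where the adjusted p was under 0.05. The intervals of DDIT4 and SESN2 reach up to −1.69, those of MTOR reach down to 0.71, and DEPTOR has the widest intervals.

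Levels of different genes were compared per kilobase of annotated exons. In shControl the order was DDIT4 (923 CPM per kilobase), SESN2 (41.9), MLST8 (13.9), AKT1S1 (10.7), MTOR (7.48), TSC2 (6.06), RPTOR (5.28), RICTOR (2.55), TSC1 (1.76) and DEPTOR (1.05), and no neighbours in that order overlapped. In shRNA1 SESN2 stood at rank 5 with 11.4 CPM per kilobase, below MTOR at 13.1, and in shRNA2 it was 11.0 beside 13.9 for MTOR. RPTOR passed TSC2 in both knockdown groups, with 8.45 and 8.82 CPM per kilobase against 7.50 and 7.51. TSC1 and RICTOR overlapped there. With the longest transcript as length SESN2 went from rank 2 to rank 7, and TSC2 stood at rank 4 in shControl with 18.7 CPM per kilobase, so the place of TSC2 depends on the length used. The ratio of DDIT4 to MTOR per kilobase was 126 and 121 in shControl and 18.7 to 20.9 in the knockdown libraries. SESN2 to MTOR was 5.65 and 5.54 in shControl and 0.783 to 0.922 in the knockdown libraries. These ratios describe genes already seen to move in opposite directions. For each, the exact permutation test gave p = 0.0667, the smallest value these libraries allow. With groups so far apart it could give no other value, so it adds no support.

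**Figure D3:**
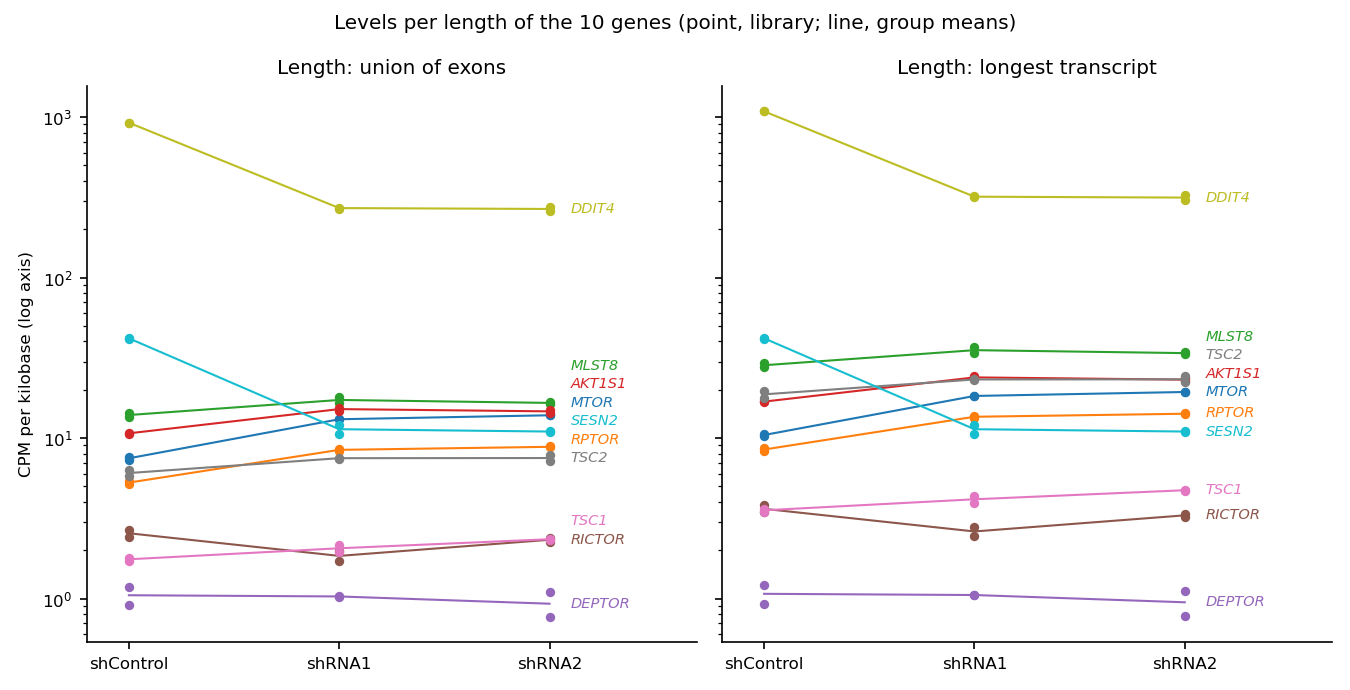
Level of the 10 genes in CPM per kilobase (log axis) by group, with the length taken as the union of exons (left) or the longest transcript (right). Points are libraries and lines join group means. SESN2 drops from 41.9 to 11.4 and 11.0 and crosses MTOR, which climbs from 7.48 to 13.1 and 13.9 with the union of exons.

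By the likeness of their log2 differences from the shControl mean over the 6 libraries, the genes nearest to MTOR among 9504 genes with at least 10 CPM were SEC24C, a coat protein of secretory vesicles (root mean square difference 0.0222), MSN, which links actin to the membrane (0.0235), and SPTAN1, a spectrin (0.0258). SEC24C stood at 120 and 124 CPM in shControl and 210 to 221 CPM in the knockdown libraries. As many as 371 genes lay within 0.1 of MTOR. For DDIT4 only 15 did, led by LAMB3, a laminin chain (0.0626), TXNIP, which binds thioredoxin (0.0632), and EREG, an EGF receptor ligand (0.0670). LAMB3 stood at 187 and 189 CPM in shControl and 52.5 to 59.2 CPM in the knockdown libraries.

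The rest of the pathway was read from 75 other genes in 11 lists by role, chosen with earlier results of these data known. For the mean of both hairpins 24 rose, 31 fell and 20 were not called, so 73.3% were called, with a median log2 fold change of −0.02. Over all tested genes 57.5% were called, 28.6% as higher and 28.9% as lower, with a median of −0.03. With total counts in place of TMM 20 of the 75 rose and 38 fell (median −0.17), and after removal of the length and GC trend 28 rose and 24 fell. In each list the called genes with the highest and lowest values are given, and further partners were chosen after their values were seen.

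Of 6 genes for mTORC2 subunits and complex assembly, 4 rose and 1 fell (median 0.52, all genes 28.6% higher), and with total counts 3 rose and 1 fell. MAPKAP1, which encodes the mTORC2 subunit SIN1, rose from 51.7 and 48.4 CPM to between 104 and 109 CPM (log2 1.10 ± 0.05, edgeR adjusted p = 9.0e-11). PRR5L, an mTORC2-binding protein, fell (−0.38 ± 0.08), and TELO2, part of the chaperone complex that assembles mTOR, rose (0.78 ± 0.08).

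RHEB, the GTPase that activates mTORC1, fell from 111 and 107 CPM to between 68.2 and 76.5 CPM (log2 −0.62 ± 0.05, edgeR adjusted p = 3.7e-08). It was 1 of 3 RHEB switch genes, of which 1 fell and 1 rose, beside 28.9% of all genes lower and 28.6% higher. TBC1D7, the smallest subunit of the TSC complex, rose (0.31 ± 0.10, adjusted p = 0.0149), a call lost with total counts (0.16, adjusted p = 0.196). It was also lost without shRNA2 replicate 1 (adjusted p = 0.0576), shControl replicate 1 (0.0630) or shControl replicate 2 (0.107). Of the paralogs of the inhibitors, SESN1 rose at a low level, from 3.0 and 4.24 CPM to between 4.55 and 6.99 CPM (log2 0.70 ± 0.22, adjusted p = 0.0147). Without shControl replicate 1 its value was 0.48 (adjusted p = 0.183). SESN3 (0.74 ± 0.42) and DDIT4L (0.53 ± 0.51) were not called.

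On the lysosomal branch, 3 of 10 Rag and Ragulator genes rose and 2 fell (median 0.07), beside 28.6% of all genes higher and 28.9% lower. LAMTOR1, the anchor of Ragulator in the lysosomal membrane, rose from 57.9 and 58.4 CPM to between 116 and 126 CPM (log2 1.08 ± 0.05), while LAMTOR2, another Ragulator subunit, fell from 31.1 and 30.1 CPM to between 15.2 and 17.0 CPM (−0.89 ± 0.09). All 3 folliculin complex genes were called, beside 57.5% of all tested genes. FNIP2 rose (0.67 ± 0.09), and FNIP1 (−0.52 ± 0.08) and FLCN (−0.50 ± 0.06), the GTPase-activating partner, fell.

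Of 7 GATOR1 and KICSTOR genes, which restrain the Rag branch, 3 rose and 1 fell, beside 28.6% of all genes higher and 28.9% lower. KPTN rose from 3.33 and 2.60 CPM to between 6.79 and 8.79 CPM (log2 1.33 ± 0.20), and C12orf66 (KICS2), of the same complex, fell (−1.14 ± 0.15). Among 5 GATOR2 genes SEC13, also part of a vesicle coat and the nuclear pore, rose (0.77 ± 0.04), and MIOS fell (−0.52 ± 0.11). With total counts 4 of the 5 GATOR2 genes were called lower, and 2 with TMM, beside 6028 and 4640 of all 16039 tested genes. Of 5 other amino acid sensor genes 2 rose and 3 fell, beside the 28.6% and 28.9% of all genes. The arginine sensor CASTOR1 fell (−1.10 ± 0.14). Its relative CASTOR2 rose from 14.4 and 17.1 CPM to between 62.8 and 70.9 CPM (2.08 ± 0.08), the highest value of the 75, and is uncertain because near-identical copies can share its reads.

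In the growth factor arm 7 of 11 genes fell and 2 rose (median −0.31), beside 28.9% of all genes lower and 28.6% higher. AKT1 rose (log2 0.53 ± 0.04), and GRB10, an adaptor that mTORC1 stabilises, fell from 271 and 260 CPM to between 162 and 172 CPM (−0.67 ± 0.03). The LKB1 and AMPK arm, which senses low energy, had 6 of 9 genes lower and 0 higher at the adjusted threshold of edgeR (median −0.37), beside the same shares of all genes. PRKAB2, a regulatory subunit of AMPK, fell from 36.5 and 36.0 CPM to between 13.3 and 17.0 CPM (−1.30 ± 0.09), and the catalytic subunit gene PRKAA1 fell as well (−0.56 ± 0.06). PRKAB1, the other regulatory subunit of that kind, had the smallest called fall (−0.32 ± 0.08, adjusted p = 0.00476), which was lost without shControl replicate 2 (−0.23, adjusted p = 0.108). After removal of the length and GC trend this arm had 5 lower and 1 higher, and the growth factor arm 5 lower and 3 higher.

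Substrates of the complexes were split, with 6 of 13 higher and 6 lower, beside 28.6% and 28.9% of all genes. EIF4EBP1, a repressor of cap-dependent translation that mTORC1 switches off, fell from 78.3 and 85.8 CPM to between 30.0 and 36.1 CPM (log2 −1.37 ± 0.07, edgeR adjusted p = 3.0e-10). EIF4EBP2, its close relative, rose from 73.5 and 66.4 CPM to between 161 and 168 CPM (1.23 ± 0.05, adjusted p = 8.1e-12). Per kilobase of exons the pair stood well apart in shControl, at 76.5 CPM for EIF4EBP1 and 9.64 CPM for EIF4EBP2. The means were closer with knockdown, 30.8 and 22.3 CPM per kilobase in shRNA1 and 28.6 and 22.8 in shRNA2.

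**Figure D4:**
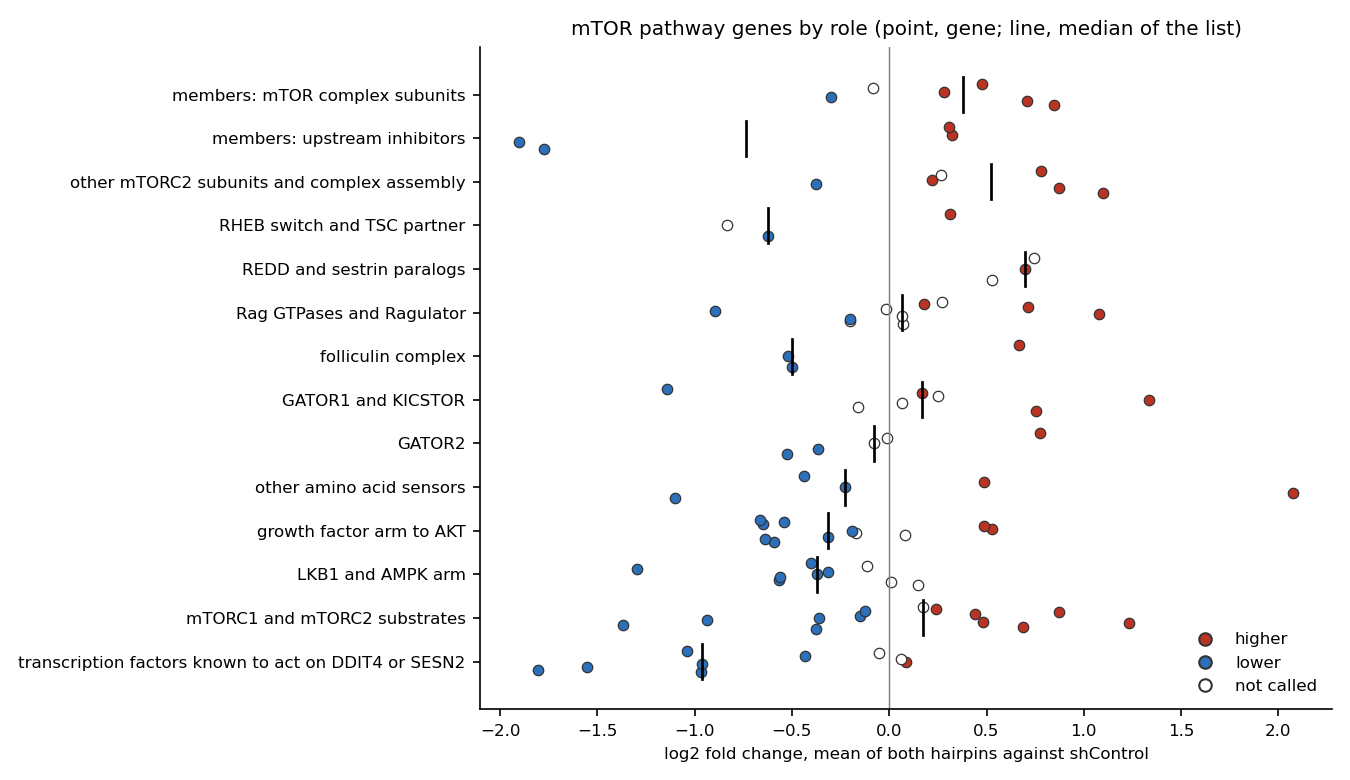
Log2 fold change for the mean of both hairpins against shControl (horizontal axis) of the pathway genes, 1 point per gene, in rows by role, with a line at each list's median. Red and blue points were called higher and lower, open points were not called. Every list of the 75 other genes but that of the LKB1 and AMPK arm has at least 1 called gene on the higher side.

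Transcription factors known to act on DDIT4 or SESN2 were examined as a list of 9, of which 6 fell and 1 rose (median −0.96), beside 28.9% of all genes lower and 28.6% higher. DDIT3, a stress factor of the integrated stress response, fell from 30.3 and 32.2 CPM to between 7.86 and 9.98 CPM (log2 −1.81 ± 0.11). CEBPB, a partner of ATF4, fell from 64.4 and 64.7 CPM to between 19.0 and 26.0 CPM (−1.55 ± 0.07), and ATF4 itself had a value of −0.97 ± 0.04. The glucocorticoid receptor gene NR3C1 fell from 186 CPM in both controls to between 88.7 and 93.4 CPM (−1.04 ± 0.04). EPAS1, which encodes HIF-2 alpha, fell from 542 and 559 CPM to between 281 and 283 CPM (−0.96 ± 0.03), and NFE2L2, the oxidative stress factor, fell (−0.43 ± 0.04). HIF1A was higher by 0.09 ± 0.03 (edgeR adjusted p = 0.0368), which turned to −0.07 with total counts. That call was also lost without shRNA1 replicate 1 (adjusted p = 0.0620), shRNA2 replicate 1 (0.128), shControl replicate 1 (0.158) or shControl replicate 2 (0.199). FOXO3 (−0.05 ± 0.06) was among those not called. Whether any of these factors has a part in the fall of DDIT4 or SESN2 was not tested.

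**Figure D5:**
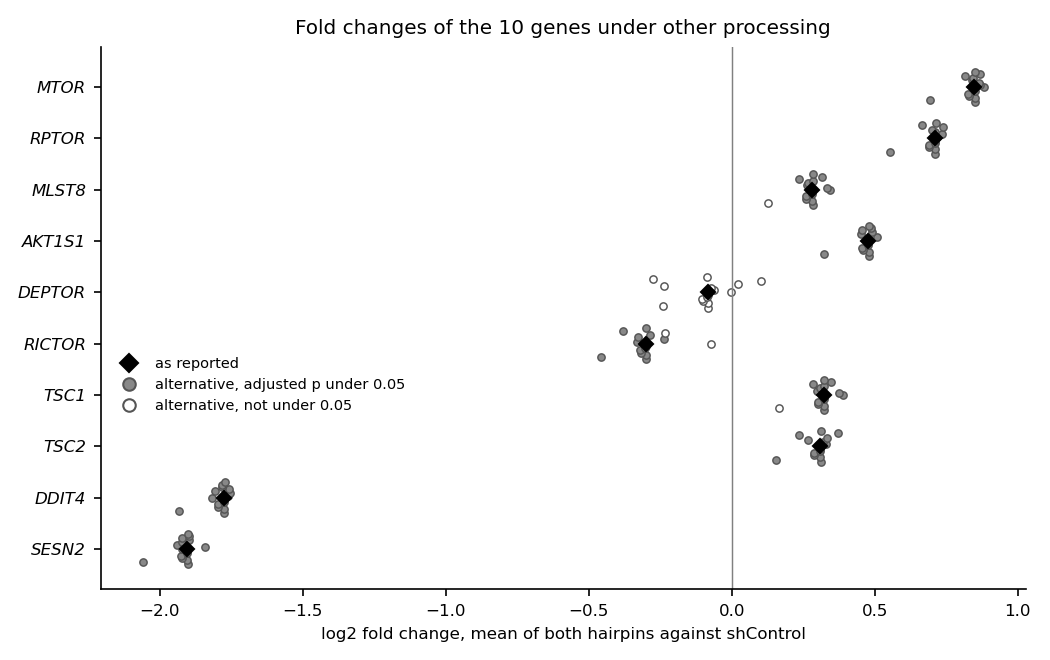
Log2 fold change of the 10 genes for the mean of both hairpins (horizontal axis) as reported (diamonds) and under each alternative setting (circles, filled where the adjusted p was under 0.05). MTOR, RPTOR, AKT1S1, DDIT4 and SESN2 have filled circles only, while DEPTOR has open circles on both sides of 0 and RICTOR has one at −0.07.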

How the data were processed

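The authors deposited whole-number counts per gene for 6 libraries. Per the submitters' processing notes, reads were handled with FastQC 0.11.9, Trim Galore 0.6.7, HISAT2 2.2.1 (hg38) and StringTie 2.2.1. The counting tool, annotation release and strand setting are not given in these sources. Groups came from the labels, and the count columns were matched by name.

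Counts of all genes that passed filterByExpr were fitted with edgeR 4.0.16 (R 4.3.3, TMM, robust quasi-likelihood F test, all 3 groups, 3 residual degrees of freedom), with Benjamini-Hochberg adjustment over all 16039 genes. Depth was 15376448 to 37311846 counts per library. Positions, exon lengths and GC came from GENCODE 29, which holds 58381 (96.3%) of the gene IDs. The 10 genes and the lists were chosen with earlier results of these data known. Named genes were the 10, the highest and lowest called gene of each list with up to 2 partners, overlapping genes, the listed factors (1 is not reported here), and the 3 genes most like MTOR and DDIT4.

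Alternatives were DESeq2 1.42.0, RLE factors, total counts, other filters, library sizes that leave out mitochondrial and ribosomal RNA genes, a replicate block, a 1.2-fold test (glmTreat), only the groups compared, a length and GC trend (mgcv 1.9.3; 15902 genes, 99.1%), and each library left out, which takes the spread of a lone library from the other groups. Code was tested on simulated data. Replicates were not duplicates (chi-square per degree of freedom 4.61 to 6.61).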

Additional observations from a re-analysis of the deposited data

How the results depend on the processing

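MTOR, RPTOR, AKT1S1, DDIT4 and SESN2 kept their direction and call in each alternative run, for the mean of both hairpins and for each hairpin. Over these alternatives the mean-of-both value ran from 0.69 to 0.88 for MTOR, −1.93 to −1.75 for DDIT4 and 0.32 to 0.51 for AKT1S1. Against a fold of 1.2 the higher members were 3 for the mean of both hairpins and 3 for shRNA1, each in place of 6, and the lower genes among the 75 others were 19 in place of 31. MLST8, TSC1, TSC2 and RICTOR were the members that lost a mean-of-both call there.

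Total counts in place of TMM moved the median of all genes from −0.03 to −0.18 and the share of calls that were higher from 49.7% to 36.0%, with 3398 genes higher and 6028 lower. Under it 4 members were higher and 3 lower, RICTOR fell with shRNA2 too (−0.29, adjusted p = 0.0203), HIF1A was −0.068, and FOXO3 was called (−0.21). After the length and GC trend was removed the median was 0.05, RICTOR with shRNA2 was 0.10, DEPTOR with shRNA1 0.068 and FOXO3 0.018. The cause was not tested.

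Leaving out 1 library at a time, DEPTOR ran from −0.28 to 0.10 for the mean of both hairpins, −0.21 to 0.17 with shRNA1 and −0.45 to 0.064 with shRNA2. Without shControl replicate 1, MLST8 with shRNA2 was 0.20 (adjusted p = 0.0664). Between the hairpins DESeq2 called 7 genes higher and 10 lower, and no filter on low counts 27 and 42, none of them a member under either.

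Replicate numbers are shared by the groups, but same-numbered libraries did not deviate together (correlations −0.00, 0.01 and −0.03). With the number as a block MTOR was 0.85 and LINC02068 −1.52 (adjusted p = 0.0506, call lost), and no member's call changed. DEPTOR and LINC02068 are limited by depth.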

Other observations

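Several families of the pathway had members that were called in opposite directions, a pattern noticed after the values were seen. Of the S6 kinase genes, whose products phosphorylate ribosomal protein S6, RPS6KB2 rose from 39.9 and 48.5 CPM to between 67.8 and 74.3 CPM (log2 0.69 ± 0.08, edgeR adjusted p = 3.1e-06). RPS6KB1 fell from 32.7 and 36.6 CPM to between 24.1 and 27.7 CPM (−0.38 ± 0.08, adjusted p = 0.00117), and after removal of the length and GC trend it was −0.18 (adjusted p = 0.0692). The pairs EIF4EBP1 and EIF4EBP2, FNIP1 and FNIP2, and SESN2 and SESN1 also had opposite signs. Other pairs moved together, as the AMPK genes PRKAA1 and PRKAA2 (−0.56 and −0.37) and PRKAB1 and PRKAB2 (−0.32 and −1.30) fell. The call of PRKAA2 was not kept in every alternative run. Over all tested genes 28.6% were called higher and 28.9% lower. The difference within a pair was not tested.

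Among further genes of the lists, PRR5, an mTORC2 subunit gene, rose from 4.67 and 4.64 CPM to between 6.92 and 9.39 CPM (0.87 ± 0.17, adjusted p = 4.1e-04). DEPDC5, of GATOR1, rose from 9.01 and 9.17 CPM to between 12.1 and 18.4 CPM (0.76 ± 0.16, adjusted p = 0.00119). WDR24, of GATOR2, fell from 43.6 and 41.6 CPM to between 30.8 and 36.2 CPM (−0.37 ± 0.08, adjusted p = 9.8e-04).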
